A study of Mus musculus with 6 samples.

Results

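Expression of 10 transcription factor genes of somite differentiation was examined in whole E9.5 mouse embryos that lacked the reduced folate carrier (RFC1, mouse gene Slc19a1), which brings folate into cells. The genes were Meox1, Meox2, Tcf15, Pax1, Pax9, Uncx, Foxc1, Foxc2, Nkx3-2 and Dmrt2, and they were taken by name, as every probe set in the array table whose annotation gave 1 of these symbols and no other. All 10 were on the array, with 15 probe sets, out of 18194 genes and 34958 probe sets that carried 1 symbol. The 6 arrays held 3 RFC1-/- and 3 RFC1+/+ embryos, 1 embryo per array, drawn as a mutant and a wildtype littermate from each of 3 litters. Genotypes are given by the sample labels as Nullizygote and WT. The allele was a targeted inactivation of RFC1 that had been moved from a hybrid C57BL/6J stock onto the inbred SWV background. Heterozygous dams carried the litters, and every dam, of mutants and wildtypes alike, had received folic acid at 25 mg/kg subcutaneously each day from E0.5. The RFC1-/- embryos are labelled as having an open neural tube (craniorachischisis) and an allantois that had not fused with the chorion, whereas their littermates are labelled normal in both structures. The sources give no somite number for them. At mid-gestation, the paper describes RFC1-/- embryos as behind their wildtype littermates in development, with mesoderm that is sparse and poorly organized. The part of such a delay in the somite gene values was not tested.

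Somites are blocks of paraxial mesoderm that bud off in pairs along the neural tube. The ventral part of each block becomes the sclerotome, the source of vertebrae and ribs, under hedgehog signals from notochord and floor plate, and the dorsal part becomes the dermomyotome, the source of dermis and skeletal muscle. Each somite also has a front and a rear part with different genes. Meox1, Meox2 and Tcf15 act in the epithelial somite and its early derivatives, Pax1, Pax9 and Nkx3-2 in the sclerotome, Uncx in its rear part, Dmrt2 in the dermomyotome, and Foxc1 and Foxc2 in paraxial mesoderm from before segmentation. Several of these genes are also active elsewhere in the embryo, Pax1 and Pax9 in the pharyngeal pouches, Meox2 and both Foxc genes in vessels or head mesenchyme.

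The promoters of the genes that differed most steadily between littermates, and of Pax9, which moved the other way, are shown for reference. Each sequence is the 250 bases upstream of the gene's start in RefSeq (GRCm38.p6), 5′ to 3′ on the strand of the gene, with capitals for matches to any of 6 motifs on either strand.
Dmrt2, chr19:25672161-25672410, plus strand: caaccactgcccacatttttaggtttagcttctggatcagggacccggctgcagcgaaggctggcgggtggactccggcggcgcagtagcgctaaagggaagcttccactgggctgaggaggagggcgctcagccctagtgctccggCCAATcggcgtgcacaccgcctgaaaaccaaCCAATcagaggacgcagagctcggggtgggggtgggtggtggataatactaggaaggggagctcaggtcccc
Meox2, chr12:37108290-37108539, plus strand: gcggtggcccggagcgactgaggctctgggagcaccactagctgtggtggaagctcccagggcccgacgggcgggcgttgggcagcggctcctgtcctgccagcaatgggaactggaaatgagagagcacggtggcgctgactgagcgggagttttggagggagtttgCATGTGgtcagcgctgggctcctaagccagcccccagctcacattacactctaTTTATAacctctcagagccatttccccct
Pax1, chr2:147364744-147364993, plus strand: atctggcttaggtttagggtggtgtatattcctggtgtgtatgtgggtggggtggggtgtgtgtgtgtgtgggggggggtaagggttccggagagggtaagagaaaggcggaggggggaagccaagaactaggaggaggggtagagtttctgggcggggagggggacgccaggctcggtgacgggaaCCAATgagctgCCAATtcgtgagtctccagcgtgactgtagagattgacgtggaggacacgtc
Pax9, chr12:56695221-56695470, plus strand: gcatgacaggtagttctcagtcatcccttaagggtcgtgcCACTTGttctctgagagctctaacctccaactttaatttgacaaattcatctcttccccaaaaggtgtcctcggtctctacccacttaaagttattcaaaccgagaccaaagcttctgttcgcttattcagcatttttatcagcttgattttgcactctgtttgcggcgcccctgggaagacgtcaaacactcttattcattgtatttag

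RefSeq promoters were matched for 7 members, which are these 4 with Nkx3-2, Uncx and Foxc1. The E box searched for was CANNTG, read by bHLH factors such as Tcf15. The homeodomain core was TAATTA, and the GLI motif of hedgehog signalling was GACCACCCA. The forkhead motif was TGTTTAC, and the general promoter elements were the CCAAT box, by those letters, and the TATA box, spelled TATAAA. Among the members, the CCAAT box was found in the promoters of Dmrt2 and Pax1, with 2 matches in each, and in those of Uncx and Foxc1, with 1 match each, whereas 33.9% of 32851 promoters of this length held it. An E box was found in 3 of the 7 (Meox2, Pax9 and Nkx3-2) against 66.2% of all promoters. The homeodomain core was found only in the Uncx promoter among the 7, with 2 matches, against 4.84% of all promoters, and a TATA box only in that of Meox2, against 12.4%. Neither the GLI nor the forkhead motif was found in any of the 7 windows, and they were in 0.225% and 3.17% of all promoters. GC content was 62.4% for Dmrt2, 62.0% for Meox2, 58.8% for Pax1 and 43.6% for Pax9, beside a median of 52.4% over all promoters. A match is a description of these letters only.

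Medians of the arrays lay between 5.43 and 5.49 on the log2 scale, and correlations between arrays between 0.984 and 0.996. Slc19a1, on its brightest probe set, lay between 8.89 and 9.11 in RFC1+/+ embryos and between 9.84 and 10.10 in embryos labelled RFC1-/-, so the targeted gene gave the higher signal in the mutants. Since the sources do not say which exons this allele lost, the probe set is no check of the genotypes, for which the labels are used. Markers of visceral endoderm, which lines the yolk sac, were higher in RFC1-/- embryos, with 17 of 17 measured genes past the threshold. Their summed linear signal lay between 2826 and 6753 in RFC1+/+ and between 24850 and 65640 in RFC1-/- embryos. Markers of primitive red cells were lower, with 8 of 10, and their summed signal lay between 28720 and 41800 in RFC1+/+ and between 1177 and 4749 in RFC1-/- embryos. Neural progenitor markers were lower too, with 8 of 10 genes and sums of 6729 to 7324 against 2801 to 4664. The part of these shifts in the somite gene values was not tested. Somite markers were present in every array, with Tcf15 at 8.01 or more and Meox1 at 8.12 or more on the log2 scale.

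Of the 10 members, 4 were lower and 1 was higher in RFC1-/- embryos, and the largest fall was that of Dmrt2. Dmrt2, Meox2 and Pax1 were 2.47-fold, 1.95-fold and 1.54-fold lower, Meox1 fell by 0.58 on the log2 scale, and Pax9 was 1.44-fold higher on 1 of its 3 probe sets. The other 5 members did not pass an adjusted p of 0.05. Differences are RFC1-/- minus RFC1+/+ within each litter, tested in limma with litter as a blocking factor and adjusted by Benjamini-Hochberg over 18194 genes, with the brightest probe set standing for each gene. Over all of these genes, 1.65% were called lower and 3.67% higher, beside 4 of 10 and 1 of 10 members. The members were chosen with earlier results of these data known, so this difference in shares is not read as support. Without litter 1, or without litter 2, 2 members were called lower. Before adjustment, 6 of the 10 had a limma p under 0.05, as did 3354 of all 18194 genes. The median log2 difference of the 10 members was -0.56, beside -0.01 for all genes, and -0.22 without litter 3. With whole embryos as samples, fewer somite cells, fewer somites and less RNA per cell cannot be told apart.

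**Figure D1:**
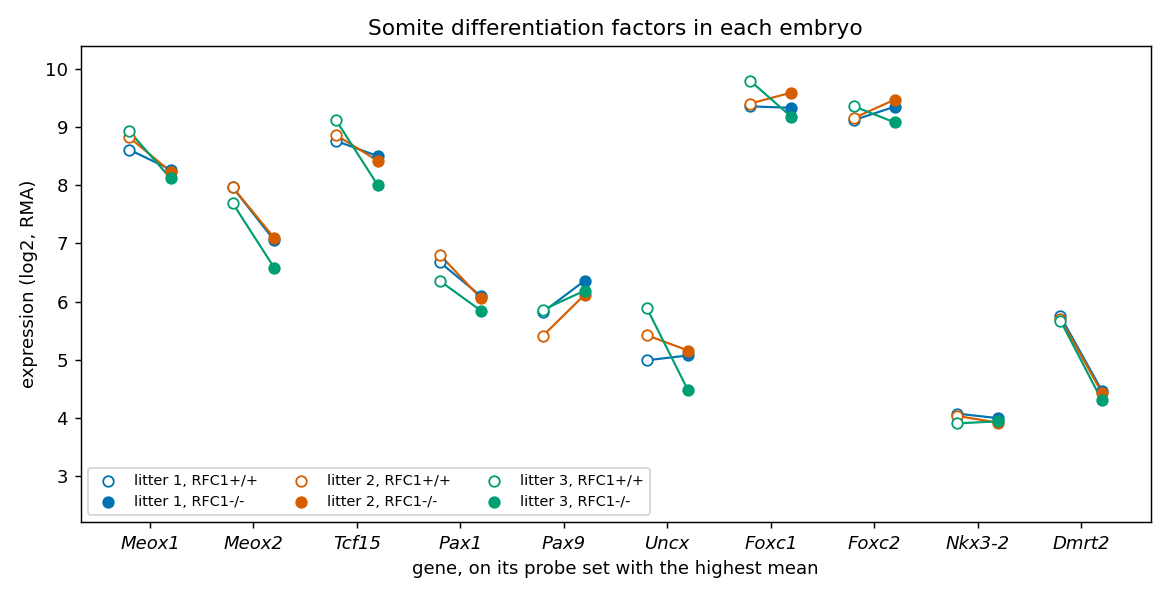
Expression (y axis, log2 RMA values) of the 10 somite genes (x axis) in each of the 6 embryos, with open points for RFC1+/+, filled points for RFC1-/-, 1 colour per litter and a line joining littermates. All 3 lines slope down for Dmrt2, Meox1, Meox2, Tcf15 and Pax1 and up for Pax9, and the lines of Uncx, Foxc1, Foxc2 and Nkx3-2 run both ways.

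Groups did not overlap for 6 members: all 3 RFC1-/- embryos lay below all 3 RFC1+/+ embryos for Dmrt2, Meox1, Meox2, Tcf15 and Pax1, and above them for Pax9. Such separation was common on these arrays, since 13.4% of all genes had the RFC1-/- embryos all lower and 12.8% had them all higher. The share among the members was thus 5 of 10 lower and 1 of 10 higher.

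Among the dermomyotome genes, Dmrt2, which sets up the organization of the dermomyotome and myotome, gave the most even difference of all 10 members. Wildtype levels of Dmrt2 were 5.74, 5.70 and 5.67 (log2, litters 1, 2 and 3), and mutant levels 4.47, 4.43 and 4.30. The groups were thus far apart for their spread, with 5.71 ± 0.04 against 4.40 ± 0.09 (SD, n = 3 each). The log2 difference was -1.31 (standard error 0.10, adjusted p = 0.00342 from limma), and in the litters it was -1.28, -1.27 and -1.37. Dmrt2 has a single probe set here, and its mean was at percentile 43.8 of all probe sets. Dmrt2 and Meox2 also stand on a list that the study drew up from these samples, so their presence here is not independent evidence of a direction.

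Both Meox genes, homeobox genes that overlap in function in the somite, were lower in the RFC1-/- embryo of every litter. Meox2 measured 7.96, 7.97 and 7.69 in wildtypes and 7.05, 7.10 and 6.58 in mutants, and so differed by -0.96 (SE 0.10, limma adjusted p = 0.00717), on a probe set whose type (_s_at) may match several transcripts. Its other probe set, at 6.56, 6.59 and 6.41 against 5.75, 5.77 and 5.57, gave a difference of -0.82, with -0.81, -0.82 and -0.83 in the litters. The 2 probe sets of Meox2 thus gave like differences, and both passed over all probe sets (adjusted p = 0.00835 and 0.0105 from limma). Meox1 measured 8.61, 8.83 and 8.93 in RFC1+/+ and 8.27, 8.23 and 8.12 in RFC1-/- embryos, so that the groups were apart but the littermate difference ran from -0.34 in litter 1 to -0.81 in litter 3. The Meox1 difference of -0.58 (standard error 0.12) passed over genes (adjusted p = 0.0425 from limma) and not over probe sets (adjusted p = 0.0555 from limma). It also did not pass without litter 1, 2 or 3 (adjusted p = 0.0815, 0.118 and 0.0667 from limma), nor with arrays centred on their median (0.0651), where 3 members were called lower.

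Tcf15 (paraxis), a bHLH factor needed for somites to form an epithelium, was lower in every litter but by unequal amounts. Levels were 8.76, 8.86 and 9.12 in wildtypes of litters 1, 2 and 3, and 8.50, 8.42 and 8.01 in mutants. The groups did not overlap, yet the littermate differences were -0.26, -0.44 and -1.11, so that litter 3 differed most. The mean of -0.60 (standard error 0.17, 95% interval -1.01 to -0.20) did not pass after adjustment (adjusted p = 0.105 from limma), and was -0.35 without litter 3.

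**Figure D2:**
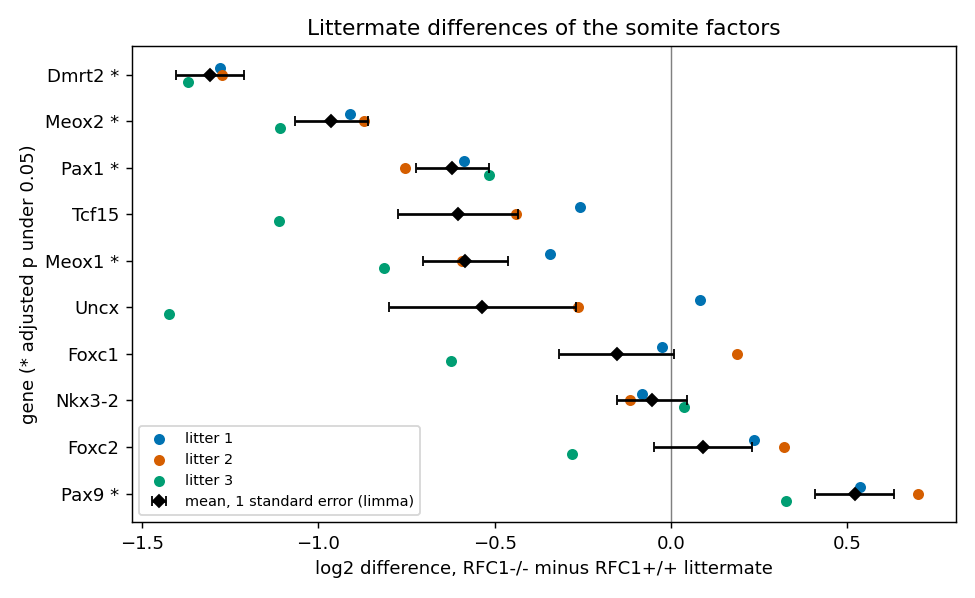
Littermate log2 difference, mutant minus wildtype (x axis), for the 10 somite genes in order of their mean (y axis), with coloured points for the 3 litters and black diamonds for the mean with 1 standard error from limma. The points of Dmrt2 lie within 0.10 of each other, whereas those of Uncx spread over 1.51, and asterisks mark the 5 genes past an adjusted p of 0.05.

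The sclerotome genes did not move together. Pax1, which drives sclerotome growth and is also active in the pharyngeal pouches, measured 6.68, 6.81 and 6.36 in RFC1+/+ embryos and 6.09, 6.05 and 5.84 in RFC1-/- embryos. Every RFC1-/- embryo was below every RFC1+/+ embryo, and the log2 difference was -0.62 (standard error 0.10, limma adjusted p = 0.0225, with 0.114 without litter 1 and 0.0829 without litter 2). A second, dimmer probe set of Pax1, at a mean of 4.50 in RFC1+/+ and 4.44 in RFC1-/- embryos, differed by -0.06 and in both directions across litters, and with the mean of both probe sets the Pax1 difference was -0.34 and its call was lost (adjusted p = 0.143 from limma).

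Pax9, the close relative of Pax1, measured 5.82, 5.41 and 5.86 in RFC1+/+ embryos and 6.36, 6.11 and 6.19 in RFC1-/- embryos on its brightest probe set. All mutants were above all wildtypes there, by 0.52 on the log2 scale (standard error 0.11, adjusted p = 0.0483 from limma). The other probe sets of Pax9 differed by 0.09 and 0.20 with limma adjusted p = 0.845 and 0.491 in the fit of all probe sets, in which the first did not pass either (limma adjusted p = 0.0628). The dimmest one, at 3.55, 3.68 and 3.71 against 3.95, 3.88 and 3.71, was higher in every litter by unequal amounts, and the other overlapped between the groups. The Pax9 call held under 2 of 10 alternatives and was lost without litter 1 or litter 2 (adjusted p = 0.234 and 0.180 from limma) and with the mean of the probe sets (difference 0.27, limma adjusted p = 0.138), so it rests on 1 probe set and on few settings.

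Nkx3-2 (Bapx1), a homeobox repressor that acts downstream of Pax1 and Pax9 in cartilage formation, was near the lower end of the scale in all embryos. It measured 4.07, 4.03 and 3.90 in RFC1+/+ and 3.99, 3.91 and 3.94 in RFC1-/- embryos, and its mean was at percentile 21.3 of all probe sets. No difference was detectable at this level (log2 difference -0.05, 95% interval -0.29 to 0.18).

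Uncx, a homeobox gene of the rear part of the sclerotome, varied more between embryos of 1 genotype than any other member. It measured 4.99, 5.42 and 5.90 in RFC1+/+ embryos and 5.07, 5.16 and 4.47 in RFC1-/- embryos, and the groups overlapped. The littermate differences were 0.08, -0.26 and -1.42, and their mean of -0.53 had a 95% interval from -1.16 to 0.09 (adjusted p = 0.359 from limma). Without litter 3 the mean was -0.09.

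Foxc1 and Foxc2, forkhead genes that specify paraxial mesoderm and also act in vessels, kidney precursors and head mesenchyme, overlapped between the groups on their brightest probe sets. Foxc1 measured 9.36, 9.41 and 9.80 in RFC1+/+ and 9.33, 9.60 and 9.18 in RFC1-/- embryos, a log2 difference of -0.15 (95% interval -0.54 to 0.23). A second probe set of Foxc1 was lower in every litter, with 8.09, 7.81 and 7.94 against 7.70, 7.59 and 7.24 and a difference of -0.44, without passing over all probe sets (limma adjusted p = 0.128), and the mean of both gave -0.30. Foxc2 measured 9.12, 9.16 and 9.36 in RFC1+/+ and 9.36, 9.48 and 9.08 in RFC1-/- embryos, so that it was higher in the mutants of litters 1 and 2 and lower in that of litter 3 (log2 difference 0.09, 95% interval -0.24 to 0.42). These intervals show how large a change in either direction the 3 litters would still allow.

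**Figure D3:**
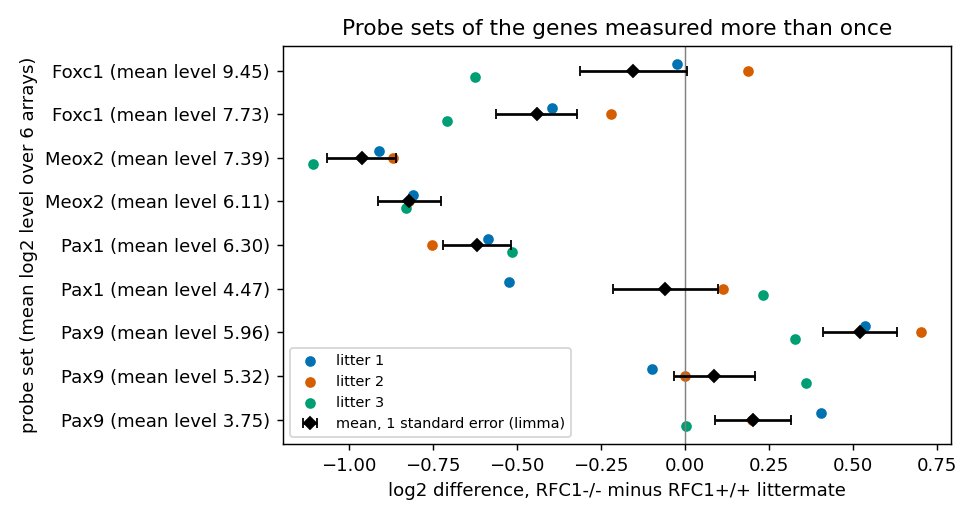
Log2 difference between littermates (x axis) for the 9 probe sets of the 4 genes with more than 1 probe set (y axis, with the mean log2 level of each), coloured points for litters and black diamonds for the mean with 1 standard error from limma. The probe sets of Meox2 lie at -0.96 and -0.82, whereas those of Pax1 lie at -0.62 and -0.06 and those of Pax9 at 0.52, 0.09 and 0.20.

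Across all 15 probe sets, tested among 45101, 4 were lower and 0 were higher in limma at an adjusted p of 0.05. They were both probe sets of Meox2 and 1 each of Dmrt2 and Pax1. Of all probe sets, 0.882% were called lower and 1.87% higher. The 1.5-fold variation filter of the methods kept 4 of the 15, beside 2982 of all 45101 probe sets. The 4 were those of Dmrt2, Tcf15 and Uncx and the brighter one of Meox2. A probe set passes that filter only by varying between arrays, so the kept ones are not read as support.

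Paralogs were set side by side by their littermate differences, since levels of different probe sets cannot be compared. The difference of Meox2 minus that of Meox1 was -0.57, -0.28 and -0.29 in the litters on the log2 scale (mean -0.38 ± 0.16, SD, n = 3). The difference of Pax9 was above that of Pax1 by 1.12, 1.46 and 0.84 in the litters (mean 1.14 ± 0.31, SD, n = 3), and by 0.61 with the mean of each gene's probe sets. The difference of Foxc2 was above that of Foxc1 by 0.26, 0.13 and 0.34 (mean 0.25 ± 0.11, SD, n = 3), and by 0.39 with the mean of each gene's probe sets. Each of the 3 pairs had the same sign in all litters, with p = 0.25 in an exact two-sided permutation test over litters, adjusted p = 0.25 over the 3 pairs, which is the smallest p that 3 litters allow.

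Litters contributed unequally. For 8 of the 10 members the lowest difference was in litter 3, where the RFC1-/- embryo held the lowest mutant level of 8 members and the RFC1+/+ embryo the highest wildtype level of 6. The median difference of the members was -0.17, -0.35 and -0.72 in litters 1, 2 and 3, beside -0.0212 for all genes in litter 2, the litter in which that median was farthest from 0. Dmrt2, Meox2 and Pax1 differed little between litters, with ranges of 0.10, 0.24 and 0.24, whereas Tcf15, Foxc1 and Uncx ranged over 0.85, 0.81 and 1.51. Visceral endoderm markers also had their largest median difference in litter 3, with 2.95, 3.18 and 4.71, and neural progenitor markers their lowest, with -0.88, -0.83 and -1.16. Primitive red cell markers ran the other way, with -3.46, -2.51 and -2.09. The part of embryo composition in the litter differences was not tested.

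Other genes of the somite were read from a separate list of 20 dermomyotome, sclerotome and polarity genes, of which 18 were measured. Of these, 4 were lower, 0 were higher and 14 did not pass in limma, with a median log2 difference of -0.18. Before adjustment, 7 had a limma p under 0.05, beside 3354 of all 18194 genes. Pax3 and Pax7, paired box genes of the dermomyotome that also mark the dorsal neural tube, were 2.39-fold and 1.78-fold lower (adjusted p = 0.0123 and 0.0114 from limma, with 0.0506 for Pax7 without the litter as a block). These folds are of the brightest probe set, and with the mean of its probe sets the log2 difference of Pax7 was -0.48 in place of -0.83. Sox9, needed for cartilage, was 1.62-fold lower (limma adjusted p = 0.0200, with 0.0721 without litter 1 and 0.0664 without litter 2). With the mean of its probe sets Sox9 differed by -0.39 in place of -0.70 and did not pass (limma adjusted p = 0.0663), nor did it under the variation filter (0.0729). Twist1, a bHLH factor of mesenchyme, was 1.45-fold lower (limma adjusted p = 0.0489, with 0.280 without litter 1 and 0.0804 without litter 3).

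Upstream of the somite, no gene of the presomitic mesoderm and segmentation list passed. All 15 measured genes of it, of 16 listed, had an adjusted p above 0.05 in limma and in the random-variance test, and the median was -0.11. Unadjusted, 4 of the 15 had a limma p under 0.05, beside 3354 of all 18194 genes. RFC1-/- embryos were all lower for 1 of the 15 and all higher for 2, beside 13.4% and 12.8% of all genes. Among 11 myotome genes, Myog and Myf5, bHLH factors that start skeletal muscle, were 2.01-fold and 1.55-fold lower (adjusted p = 0.0105 and 0.0459 from limma). The list as a whole had a median of -0.04, with 2 lower, 1 higher and 8 that did not pass. The groups did not overlap for 3 of the 11 genes, higher in RFC1-/- embryos, and for 2, lower. Over all genes, 12.8% had the RFC1-/- embryos all higher and 13.4% all lower. Myf5 did not pass without litter 1, 2 or 3 (adjusted p = 0.132, 0.0553 and 0.0579 from limma) nor without the litter as a block (0.195). Actc1, the actin that heart and early skeletal muscle share, was 1.40-fold higher (adjusted p = 0.0428 from limma, and 0.3004, 0.0944 and 0.0517 without litters 1, 2 and 3). Heart markers were higher as well, with 6 of 8 past the threshold and summed linear signals of 12450 to 16380 in RFC1+/+ against 21630 to 24010 in RFC1-/- embryos, and their part in the Actc1 value was not tested.

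Hedgehog genes, whose signal acts on Pax1, Pax9 and Nkx3-2 in the sclerotome, moved in both directions. Shh, the ligand, and Foxa2, a factor of notochord, floor plate and endoderm, were 1.56-fold and 1.89-fold higher (adjusted p = 0.0224 and 0.0163 from limma, 0.151 and 0.0704 without litter 1). The coreceptors Boc and Gas1 were 1.80-fold and 1.69-fold lower (adjusted p = 0.0211 and 0.0296 from limma, 0.0906 and 0.150 without litter 1, and 0.0772 for Gas1 without litter 2). Gas1 did not pass under the variation filter either (limma adjusted p = 0.0586). With the mean of the probe sets, the log2 difference of Boc was -0.46 in place of -0.85 and that of Shh 0.42 in place of 0.64, and both passed (limma adjusted p = 0.0425 and 0.0419). The other 7 of 11 measured genes did not pass. The median of the list was -0.09, with 6 of the 11 genes below 0, so it does not show the size of the single differences. Before adjustment, 8 of the 11 had a limma p under 0.05, beside 3354 of all 18194 genes. RFC1-/- embryos were all lower for 4 genes and all higher for 4, beside 13.4% and 12.8% of all genes. Boc and Gas1 are also active in neural tube and other mesenchyme.

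**Figure D4:**
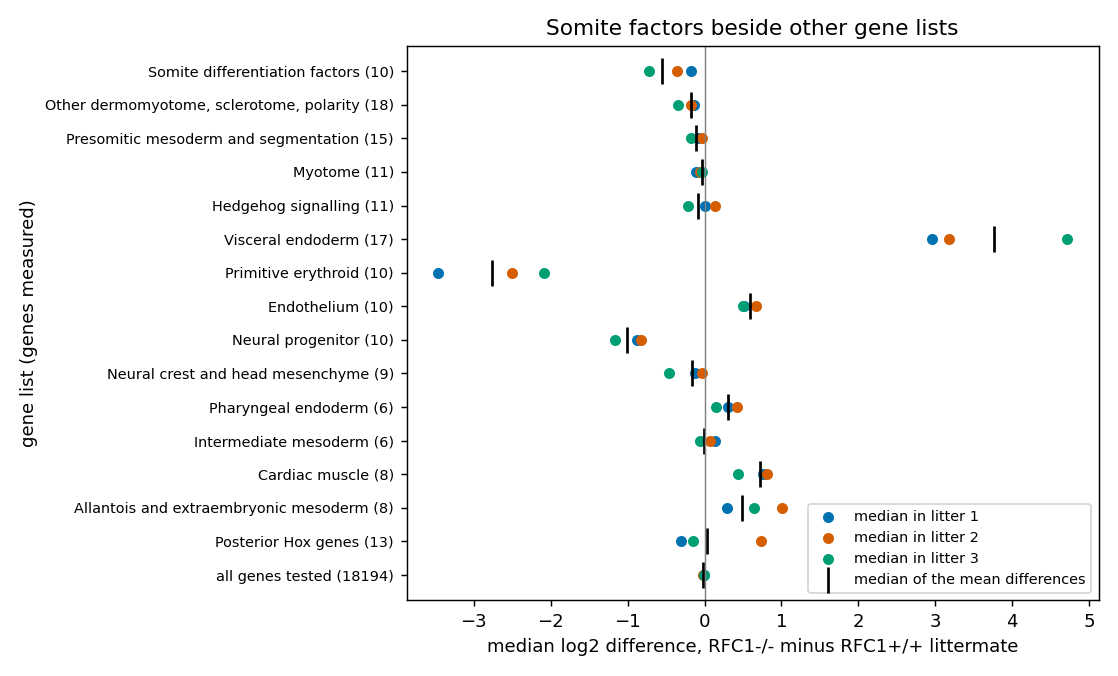
Median log2 difference between littermates, mutant minus wildtype (x axis), of the 10 somite genes beside other gene lists and all genes tested (y axis, with the number of genes measured), with coloured points for the median in each litter and black bars for the median of the mean differences. The somite genes lie at -0.56, between primitive erythroid genes at -2.76 and visceral endoderm genes at 3.76.

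Other tissues in which the members are active were read from marker lists as well. Of 10 endothelial markers, 6 were higher and 0 lower in limma, with a median of 0.59 and summed linear signals of 1894 to 2153 in RFC1+/+ against 2933 to 3264 in RFC1-/- embryos. Of 9 neural crest and head mesenchyme markers, 3 were lower and 0 higher, with a median of -0.16 and sums of 4569 to 5058 against 3947 to 4932. Pharyngeal endoderm markers, of the tissue that shares Pax1 and Pax9, had 1 of 6 higher and 0 lower, with a median of 0.30 and sums of 2077 to 2765 against 1995 to 2447. Sox2 stands on this list and on that of neural progenitors, so these sums are not of pharyngeal endoderm alone. Intermediate mesoderm markers had 1 of 6 higher and a median of -0.01, with sums of 258.5 to 278.1 against 277.3 to 297.3. The part of these tissues in the values of Meox2, Foxc1, Foxc2, Pax1 and Pax9 was not tested.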

How the data were processed

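RNA of 6 whole embryos was hybridized to Affymetrix whole-genome mouse arrays after a 2-cycle labelling of 100 ng. The authors deposited 1 table of log2 expression values, made by robust multiarray averaging (RMA, named in the submitters' processing notes), which corrects background, quantile-normalizes perfect match probes and summarises each probe set by median polish. Versions are not stated in the sources. It holds 45101 probe sets, and the number of value columns left out was 0. RMA draws arrays to a common distribution, so values are relative within that table. No read depth exists for arrays, and their number limits the precision.

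Names came from the platform annotation, which gave 34958 probe sets 1 symbol, 932 several and 9211 none, and RefSeq held the gene ID of 34754. Differences were fitted with limma 3.58.1 in R 4.3.3, with the litter as a block (2 residual degrees of freedom), empirical Bayes moderation and Benjamini-Hochberg adjustment across all genes, and in a second fit across all probe sets, at an adjusted p of 0.05. The fit was tested on simulated data whose changes were larger than that of any member, so the test gives no power at the sizes reported here. The random-variance paired test of the methods moderates variances in the same way and was an alternative. Intervals are 95% intervals from limma. Pairing comes from the labels and methods, which give 1 litter to each replicate number. Correlations of deviations from the group means were 0.10, -0.05 and -0.15 between littermates. Between wildtype and mutant embryos of different litters they ran from -0.12 to 0.16, so littermates were not more alike by this measure. The litters differ by dam. The limma p-values rest on the spread between these pairs moderated by the spread over all genes, with 4.82 prior degrees of freedom beside 2 residual. They are thus not a measure of the spread between these pairs alone. Tables, exact tests and plots were made in Python 3.11.15. The members and gene lists were chosen with earlier results of these data known, the motifs after values had been seen. Named are all members, up to 4 called genes per companion list with the largest change and any called against the direction of most, and the 5 genes most like the members; marker lists of other cell types are given by counts, medians and summed signals. The alternatives were no block, each litter left out, an intensity trend, dim genes left out, the variation filter, averaging a gene's probe sets, quantile-normalizing once more, centring arrays by their medians and the random-variance test. Listed genes that no probe set named were not analysed here.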

Additional observations from a re-analysis of the deposited data

How the results depend on the processing

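Dmrt2 and Meox2 passed under all 11 alternatives, with log2 differences from -1.32 to -1.28 and from -1.01 to -0.89. The variation filter keeps a gene only if it varies between arrays. With dim genes left out, Dmrt2 stayed only through its RFC1+/+ mean (5.71, with 4.40 in RFC1-/- embryos and a limit of 5.46). A pass of either gene under the filter, or of Dmrt2 with dim genes left out, is thus not read as support. The 4 lower members were 4 without the replicate block, 3 with centred arrays or the mean of the probe sets, 2 under the variation filter, and 2 to 3 with 1 litter left out. The 1 higher member, Pax9, became 0 without the replicate block, with an intensity trend, the variation filter, the mean of the probe sets, a second quantile normalization, centred arrays and the random-variance test, and 0 to 1 with 1 litter left out. The 4 lower member probe sets became 1 under the variation filter and 1 (without litter 1) to 4 with 1 litter left out, and 0 to 1 (without litter 3) were then higher. The members' median of -0.56 ran from -0.67 to -0.22 with 1 litter left out. Meox1, Pax1 and Pax9 were not among the genes kept by the variation filter, so they could not be called under it. The cause of the other changes was not tested. Foxc1, at -0.15, ran from -0.32 to 0.0814 (without litter 3), and Foxc2, at 0.09, from -0.0233 (without litter 2) to 0.28 when 1 litter was left out.

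In the list of other dermomyotome, sclerotome and polarity genes, 4 lower became 2 without the replicate block or under the variation filter, and 2 (without litter 1) to 3 with 1 litter left out. Presomitic genes had 1 higher with an intensity trend or a second quantile normalization, and 0 to 1 (without litter 3) with 1 litter left out. Myotome genes had 1 lower without the block, under the filter, with centred arrays, with the random-variance test or with any litter left out, and 2 higher without the block but 0 under the filter, with centred arrays or with any litter left out. Hedgehog genes had 1 lower without the block, 1 lower and 1 higher under the filter, and 0 (without litter 1) to 2 lower and 0 (without litter 1) to 4 (without litter 3) higher with 1 litter left out. Without the replicate block, Sox9, Gas1 and Pax9 missed the threshold (limma adjusted p = 0.0617, 0.0659 and 0.0610). Twist1 and Myf5 missed it in the random-variance test (adjusted p = 0.0540 and 0.0525). Over all genes, 118 were lower and 237 higher without litter 1, and 157 and 380 under the variation filter. The signs of the 3 paralog differences held with each litter left out and with the mean of the probe sets.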

Other observations

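Genes outside the somite list whose levels ran most like the mean of the 10 members over the 6 arrays were Psme3ip1, Zfp521, Efr3b, Tfdp1 and Hnrnpdl, with Pearson's r from 0.994 to 0.996. They were the closest of 11582 genes searched, and the r is a description over 6 arrays that share litters and genotypes. Zfp521, a zinc finger factor, and Efr3b differed by -0.45 each on the log2 scale, and neither passed over all genes (adjusted p = 0.0924 and 0.0747 from limma). Tfdp1, a partner of the E2F factors, and Hnrnpdl, an RNA-binding protein, differed by -0.14 and -0.12.

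Posterior Hox genes, which are switched on as the trunk extends, gave no called gene among 13 measured in limma. Unadjusted, 3 of the 13 had a limma p under 0.05, beside 3354 of all 18194 genes. The median difference of the Hox genes was -0.30, 0.74 and -0.15 in litters 1, 2 and 3, so the sign differed between litters. Markers of allantois and extraembryonic mesoderm were higher for 2 of 8 genes, beside 3.67% of all genes, with a median of 0.49. Hoxa10 and Hoxa11 stand on this list and on that of the posterior Hox genes, so the lists are not separate.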
